A study of Mus musculus with 8 samples.

Results

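The genes described here are 10 mouse genes that interferon-gamma (IFN-gamma) is known to switch on, and they were taken by symbol from a deposited table of 18901 genes. Gbp2, Gbp3, Gbp4, Gbp5 and Gbp7 encode guanylate-binding proteins, Irgm1, Igtp and Iigp1 encode immunity-related GTPases, Irf1 encodes a transcription factor and Cxcl9 encodes a chemokine. All 10 were in the table and had counts in every mouse. RNA had been sequenced from cheek skin of 4 knockout animals (genotype TBX20fl/fl;K14-Cre) and 4 controls (genotype TBX20fl/fl). All were female, 7 weeks old and on a C57BL/6 background. The floxed line was on the C57BL/6J substrain and the K14-Cre line crossed to it on C57BL/6N. Both groups carried the floxed Tbx20 allele, and in the knockout mice the keratin 14 promoter drove Cre, which removes exons of Tbx20 in keratinocytes and leaves the gene intact in immune cells, fibroblasts and endothelium. All mice had received 10 µg of brain natriuretic peptide (BNP), a peptide that elicits scratching, in the left cheek and vehicle in the right cheek, and tissue was collected 5 hours after a recording of 30 minutes. No mouse without BNP was compared here, so the values describe the genotypes after injection and not a response to BNP.

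IFN-gamma is made mainly by T and NK cells and binds a receptor of 2 chains, which activates the kinases Jak1 and Jak2. The signal acts on target genes through the GAS element, and Irf1, itself a target, binds the ISRE element in many of the same genes. Guanylate-binding proteins and immunity-related GTPases assemble on the membranes around intracellular microbes, and Irgm1 and Igtp also regulate the other GTPases of their family. Cxcl9 attracts T and NK cells that carry the receptor Cxcr3, and keratinocytes, macrophages and endothelium can all make it.

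The DNA before the start of these genes is shown first, since GAS and ISRE elements are known to lie there in many IFN-gamma targets. RefSeq windows on GRCm38.p6 matched 8 of the 10 genes, each window holding 250 bases before an annotated start and 50 after it, and Gbp3 and Irf1 had a second window each. Windows were searched on both strands for TTCNNNGAA, called GAS-like here and the same on both strands, and for GAAANNGAA with its reverse TTCNNTTTC, called ISRE-like here. The motifs can overlap one another. A GAS-like match was present in 8.3% of all 32851 windows, an ISRE-like match in 8.56% and either one in 15.8%. Of the 8 genes, 4 held a GAS-like match, 7 an ISRE-like match and 3 both, and neither second window held one. A match describes letters in a window and not binding. The stretches below run 5′ to 3′ on the strand of the gene, with matches in capitals. For Gbp2 (chr3:142620553-142620662, + strand), Gbp3 (chr3:142559934-142560043, +), Gbp5 (chr3:142496824-142496933, +), Gbp7 (chr3:142530226-142530335, +), Irgm1 (chr11:48871421-48871530, - strand) and Igtp (chr11:58199446-58199555, +) they are the 110 bases before the start. For Irf1 (chr11:53769914-53769943, +) and Cxcl9 (chr5:92328165-92328274, -) they are shorter or further upstream stretches around the match. Starts and distances are those of the RefSeq windows, and for Gbp3 and Irf1 the start used lies 28 and 160 bases inside the gene as the deposited table places it, so that the last 28 bases printed for Gbp3 and all 30 printed for Irf1 fall within that span.
Gbp2: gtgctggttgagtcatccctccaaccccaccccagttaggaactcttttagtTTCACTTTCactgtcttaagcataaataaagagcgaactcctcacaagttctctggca
Gbp3: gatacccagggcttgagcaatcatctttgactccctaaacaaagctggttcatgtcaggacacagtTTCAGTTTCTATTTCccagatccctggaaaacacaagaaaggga
Gbp5: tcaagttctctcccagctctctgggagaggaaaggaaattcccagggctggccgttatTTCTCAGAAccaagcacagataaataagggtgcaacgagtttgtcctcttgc
Gbp7: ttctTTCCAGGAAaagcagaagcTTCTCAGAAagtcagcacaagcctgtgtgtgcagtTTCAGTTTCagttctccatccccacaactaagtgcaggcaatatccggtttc
Irgm1: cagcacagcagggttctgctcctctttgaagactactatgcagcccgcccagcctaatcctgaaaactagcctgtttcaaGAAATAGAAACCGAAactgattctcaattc
Igtp: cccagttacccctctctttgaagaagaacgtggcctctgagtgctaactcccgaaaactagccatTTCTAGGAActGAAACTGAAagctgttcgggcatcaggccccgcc
Irf1: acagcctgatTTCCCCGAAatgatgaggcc
Cxcl9: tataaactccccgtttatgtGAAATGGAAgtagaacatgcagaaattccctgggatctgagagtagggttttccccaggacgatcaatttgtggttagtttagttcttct

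The GTPase genes carried their ISRE-like matches close to the start, with first bases between -58 for Gbp2 and -24 for Irgm1, apart from a match at -164 in Gbp5. In Cxcl9 the match began at -175. Gbp7 had GAS-like matches beginning at -106 and -87, Gbp5 at -245 and -52, Irf1 at -90 and Igtp at -45. Gbp3 and Irgm1 each had a pair of overlapping ISRE-like matches and no GAS-like one.

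**Figure D1:**
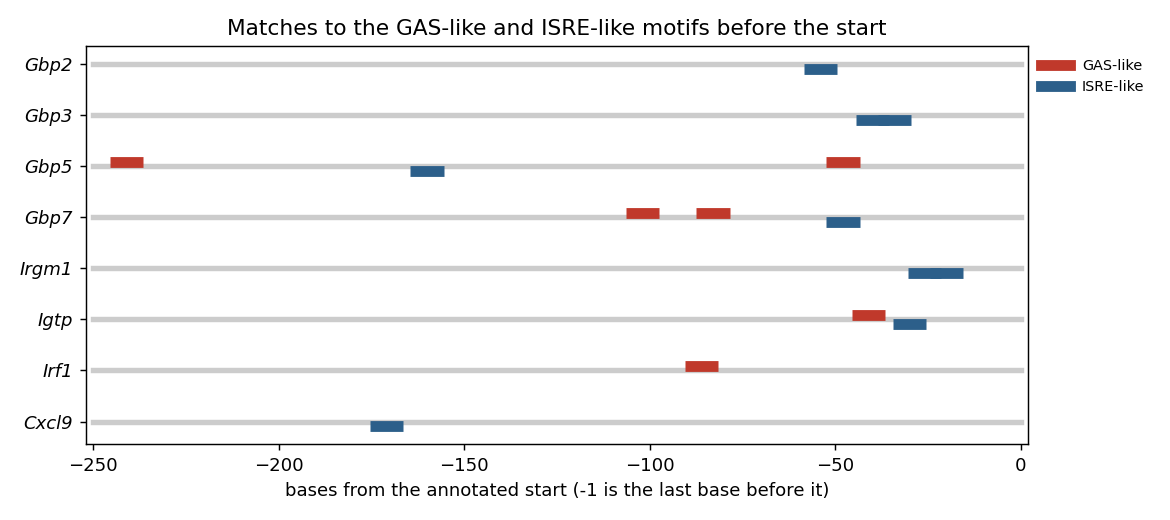
Positions of GAS-like (red) and ISRE-like (blue) matches in the 250 bases before the annotated start of 8 genes, with distance from the start on the horizontal axis. The matches of Gbp2, Gbp3, Irgm1 and Igtp all begin within 58 bases of the start, whereas that of Cxcl9 begins at -175.

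The total count per mouse was 19260856 to 19880654 in knockout mice and 16056282 to 19617762 in control mice. Tbx20 itself had 0 to 2 counts in the first group and 0 to 3 in the second, so the deletion could not be checked from these libraries. One library stood apart. control replicate 2 had a normalization factor of 0.735 against 1.01 to 1.07 in the other 7, and its median Spearman correlation with the others was 0.949 against 0.973 to 0.987. Long transcripts were low in it, so estimates are also given without it and with a correction for transcript length. Markers of keratinocytes were abundant in every mouse, with a summed FPKM (fragments per kilobase of transcript, scaled to the mapped reads of the library) of 3357 to 4265 and 2949 to 4307 in the 2 groups, and markers of skeletal muscle reached 5879 to 10303 and 7064 to 8804, so the tissue held muscle as well as skin.

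All 10 genes had a lower mean in knockout skin, and none passed the test across all genes. By edgeR's quasi-likelihood test on counts the log2 fold change, knockout over control, ran from -1.45 for Cxcl9 to -0.31 for Gbp7, with a median of -0.73 over the 10 genes against 0.03 over all 17124 genes tested. The Benjamini-Hochberg adjusted p was 0.498 by edgeR for 9 of them and 0.508 for Gbp7. No gene in the table passed an adjusted p of 0.05 by edgeR, a background of 0%, although 1431 had an unadjusted p under 0.05, and DESeq2 called 10 genes, none of them among these 10. An unadjusted p under 0.05 with a lower level was found for 6 of the 10, against 5.91% of all genes tested. In bulk tissue a lower level can come from fewer cells of a type or from less RNA per cell, and these cannot be told apart here.

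**Figure D2:**
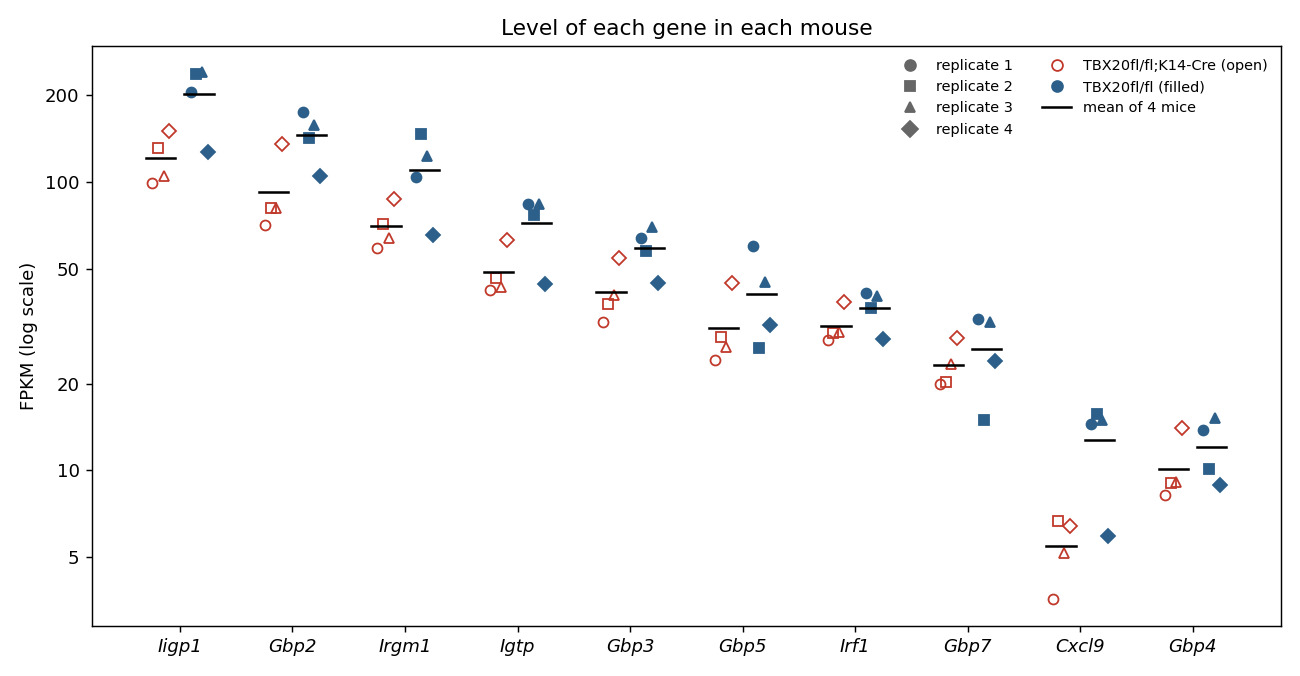
FPKM on a log scale of each gene in each mouse, ordered by the mean of the control mice, with open red symbols for knockout mice (TBX20fl/fl;K14-Cre), filled blue symbols for control mice (TBX20fl/fl), a symbol shape for each replicate number and a bar for the mean of 4 mice. The blue diamond, control replicate 4, lies among the open symbols for every gene.

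Levels spanned more than a factor of 10 in control mice. Iigp1 was the highest at 202 ± 52.8 FPKM (SD, n = 4), followed by Gbp2, Irgm1, Igtp, Gbp3, Gbp5, Irf1, Gbp7 and Cxcl9, and Gbp4 was the lowest at 12 ± 2.98 FPKM (SD, n = 4). The range of each gene over the 4 mice overlapped that of its neighbour in this order. Within single mice some neighbours kept their order: Iigp1 was above Gbp2, and Irgm1 above Igtp, in all 4 control mice. Others did not, and Gbp2 was below Irgm1 in control replicate 2, at 141.9 and 147.3 FPKM.

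Cxcl9 had the largest difference. In replicates 1 to 4 it was at 3.57, 6.65, 5.18 and 6.39 FPKM in knockout mice and at 14.53, 15.69, 14.95 and 5.94 FPKM in control mice. Replicates 1 to 3 of the control group lay above every knockout mouse, and replicate 4 lay among them. The means were 5.45 ± 1.41 and 12.8 ± 4.58 FPKM (SD, n = 4), with p = 0.0857 by the two-sided exact permutation test, whose smallest possible p is 0.0286. On counts, 196 to 375 in one group and 325 to 814 in the other, the log2 fold change was -1.45 with a standard error of 0.36, 2.73-fold lower. Its smallest adjusted p under any alternative was 0.0703, by DESeq2. Cxcl9 lies at chr5:92321331-92328079 on GRCm38, on the - strand.

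Among the guanylate-binding proteins, Gbp2 was the most abundant. Its FPKM was 70.89, 81.07, 81.29 and 135.9 in knockout replicates 1 to 4 and 175.1, 141.9, 158.2 and 105.1 in control replicates 1 to 4. The groups overlapped only through replicate 4 of each, the highest of one group and the lowest of the other. The log2 fold change was -0.84 with a standard error of 0.26, and the exact permutation p of the means, 92.3 ± 29.5 and 145 ± 29.9 FPKM (SD, n = 4), was 0.0571.

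Gbp3, in the same cluster on chromosome 3 as Gbp2, showed the same arrangement of mice. It was at 32.72, 37.8, 40.69 and 54.39 FPKM in knockout mice and at 63.76, 57.8, 69.71 and 44.52 FPKM in control mice. Its log2 fold change was -0.70 with a standard error of 0.22, with an exact permutation p of 0.0571. The cluster on GRCm38 runs from Gbp5 at chr3:142496934-142522344 through Gbp7 at chr3:142530336-142550151 and Gbp3 at chr3:142560016-142573213 to Gbp2 at chr3:142620663-142638008, all on the + strand.

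Gbp5, which takes part in inflammasome assembly, overlapped more. Its FPKM was 24.12, 29.05, 26.75 and 44.5 against 59.8, 26.53, 45.05 and 31.89, so that 3 of 4 knockout mice were at or above the lowest control mouse. That lowest mouse was replicate 2, the library that stood apart. The log2 fold change was -0.53 with a standard error of 0.25, -0.60 without that mouse and -0.34 without control replicate 1, in which Gbp5 was highest. By limma on log2(FPKM + 1) it was -0.35.

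Gbp7 and Gbp4, which have the longest transcripts of the 5 guanylate-binding protein genes in the set, had the smallest differences of these 5 on counts. Gbp7 was at 19.9, 20.25, 23.38 and 28.87 FPKM against 33.45, 14.92, 32.63 and 24, and every knockout mouse was above control replicate 2. Gbp4, at chr5:105115767-105139586 on the - strand, was at 8.24, 9.07, 9.11 and 14.04 FPKM against 13.84, 10.07, 15.19 and 8.93. Their log2 fold changes were -0.31 and -0.42 on counts, and -0.66 and -0.70 with an offset for the dependence of each library on transcript length, but -0.13 and -0.22 by limma on log2(FPKM + 1). With the length offset the smallest difference of the 5 was that of Gbp5, at -0.58. Effective lengths were 5555 bases for Gbp7 and 4361 for Gbp4, against a median of 2841 bases over genes averaging 50 counts or more. Near-identical copies limit both values: 12.7% of the 50-base stretches of Gbp7 and 7.7% of those of Gbp4 also occur in other genes, among them Gbp6, Gbp8, Gbp9, Gbp10 and Gbp11 for Gbp4. Of the 715 shared stretches of Gbp7, 588 occur in Gm43802 and 126 in Gbp3.

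The immunity-related GTPases had differences of similar size to Gbp2. Irgm1, a regulator of the family that protects the cell's own membranes, was at 58.88, 71.49, 63.99 and 87.22 FPKM in knockout mice and at 104, 147.3, 122.9 and 65.38 FPKM in control mice. Only control replicate 4 fell within the range of the other group. The log2 fold change was -0.87 with a standard error of 0.32 and moved to -0.52 without control replicate 2, in which Irgm1 was highest.

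Igtp, also known as Irgm3, was at 42.16, 46.38, 43.15 and 63.04 FPKM against 84.01, 77.14, 83.71 and 44.35, again with only control replicate 4 inside the range of the other group. Its log2 fold change was -0.77 with a standard error of 0.27. Of its 50-base stretches, 11.8% also occur in Irgm2, a gene at 40.3 ± 6.99 and 41.9 ± 16.8 FPKM (SD, n = 4). RefSeq places Irgm1 at chr11:48865245-48871420 and Igtp at chr11:58199556-58207592, whereas the deposited table lists both on alternate scaffolds.

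Iigp1, an effector GTPase that damages the vacuoles of parasites, was at 99.35, 130.8, 105 and 150.8 FPKM in knockout mice and at 205.3, 237.3, 240.2 and 126.8 FPKM in control mice. Replicates 1 to 3 of the control group were all above 200 FPKM. With all 8 mice the log2 fold change was -0.94 with a standard error of 0.29, the largest among the 8 GTPases of the set. Gbp2 had the larger one without control replicate 2, at -0.72 against -0.70, and without knockout replicate 4, at -1.08 against -1.06. The exact permutation p of Iigp1 was 0.0857.

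Irf1, the transcription factor of the set, differed little. It was at 28.28, 29.97, 30.22 and 38.44 FPKM against 41.18, 36.49, 40.4 and 28.57, with 3 of 4 knockout mice at or above the lowest control mouse. Its log2 fold change was -0.39 with a standard error of 0.20, -0.26 without control replicate 2 and -0.20 by limma on log2(FPKM + 1). No 50-base stretch of Irf1 occurs in another gene.

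For none of the 10 genes was every knockout mouse below every control mouse in FPKM, against 1.92% of the genes whose FPKM averaged 0.1 or more. The overlap came mainly from replicate 4 of each group. knockout replicate 4 was the highest of its group for 9 of the 10 genes, and control replicate 4 was the lowest of its group for 8 of them and below the highest knockout mouse for all 10. Without control replicate 4, the groups no longer overlapped for 6 genes, Gbp2, Gbp3, Irgm1, Igtp, Iigp1 and Cxcl9, against 4.23% of all genes. Without knockout replicate 4, they no longer overlapped for Gbp2 and Gbp3, 2 genes, against 3.49%. Leaving out a mouse for its position is a description and adds no support.

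Mice with the same replicate number gave the same picture. In replicates 1 and 3 all 10 genes were lower in the knockout mouse, with log2 FPKM ratios from -2.03 for Cxcl9 to -0.54 for Irf1 in the first and from -1.53 for Cxcl9 to -0.42 for Irf1 in the third. In replicate 2 Gbp5 and Gbp7 were higher, at 0.13 and 0.44, and the others were lower. In replicate 4 all 10 genes were higher, from 0.10 for Cxcl9 to 0.65 for Gbp4. With the replicate number as a block, 5 of the 10 genes had an unadjusted p under 0.05 with a lower level, against 6.54% of all genes, and Igtp was the gene no longer counted. The blocked log2 fold change was -1.36 for Cxcl9.

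**Figure D3:**
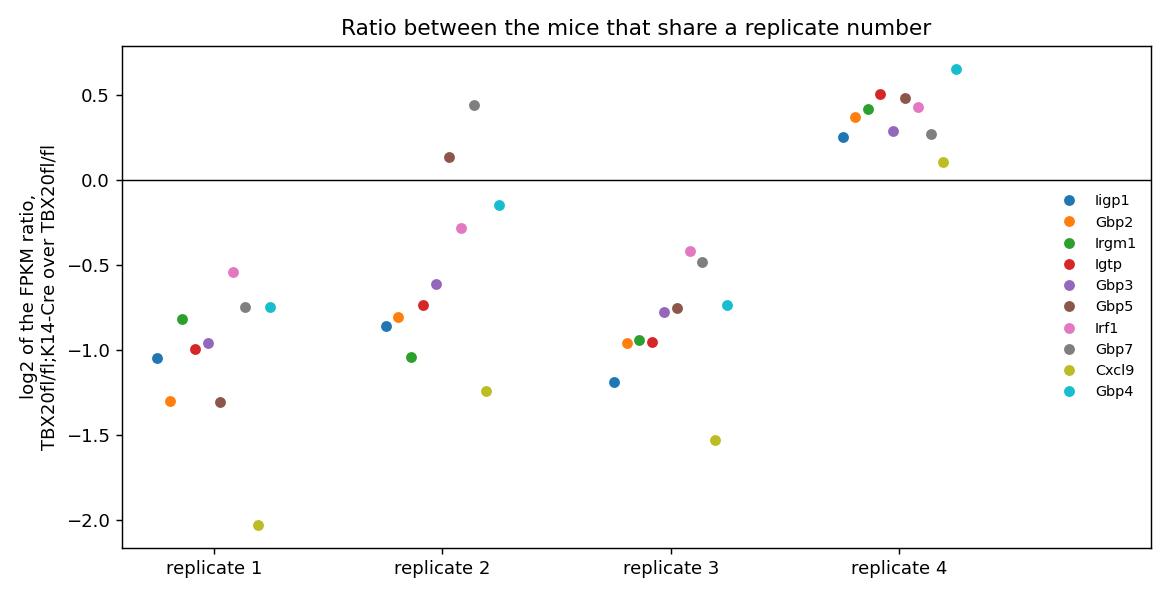
Log2 ratio of FPKM between the knockout and control mice that share a replicate number, 1 colour for each gene, with the line at 0 marking equal levels. All 10 genes lie below 0 in replicates 1 and 3 and above 0 in replicate 4.

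The count of genes with an unadjusted p under 0.05 and a lower level depended on which mice and which correction entered. It was 9 of 10 with the transcript length offset, against 5.21% of all genes, with Irf1 the exception, but 6 when that offset was combined with the replicate block, against 6.42%, where Gbp4, Gbp5 and Igtp were no longer counted either. It was 8 without control replicate 2, against 4.5%, and 9 without control replicate 4, against 9.89%. The log2 fold change of Cxcl9 was -1.49 with the length offset, -1.17 without control replicate 2 and -1.71 without control replicate 4. The smallest adjusted p of any of the 10 genes in these edgeR fits was 0.354.

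**Figure D4:**
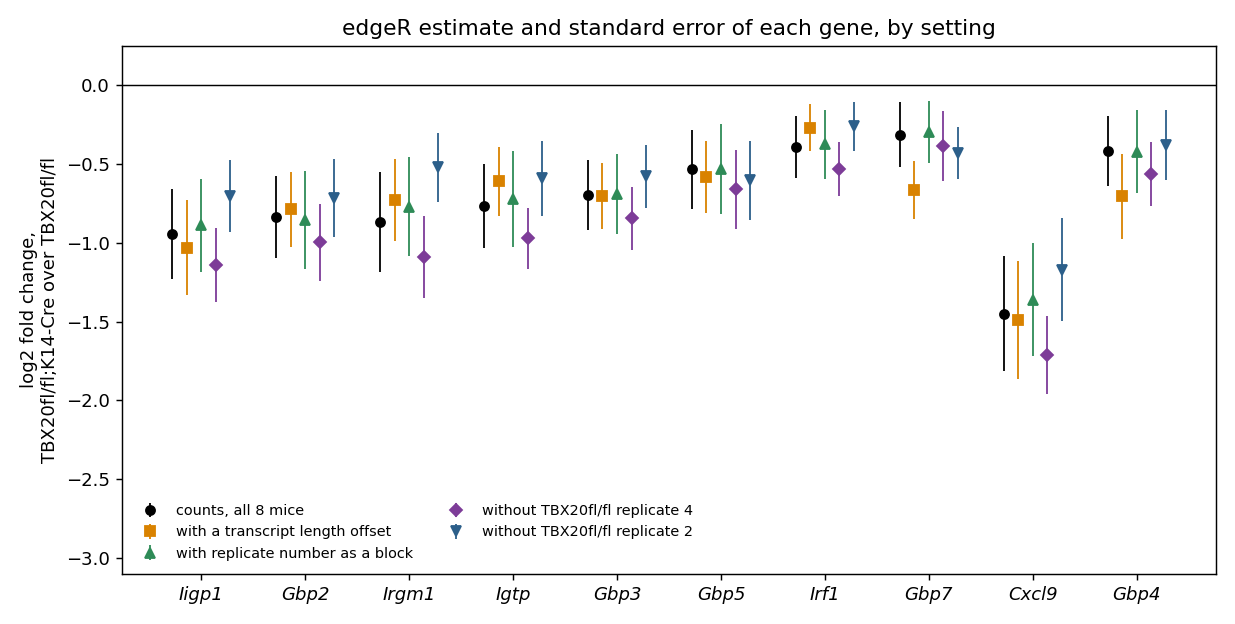
Log2 fold change of each gene by edgeR with its standard error, for all 8 mice, with a transcript length offset, with the replicate number as a block, and without either of 2 control mice. Every estimate is below 0, and Gbp7 and Gbp4 move furthest with the length offset.

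Across the 8 mice the genes varied together. Pearson's r of log2 CPM (counts scaled to library size) had a median of 0.923 over the 45 pairs of genes and a range of 0.295 to 0.988, and without Gbp5 and Gbp7 the lowest of 28 pairs was 0.828. Igtp and Irf1 were the closest pair and Gbp7 and Irgm1 the most distant. The points share their libraries and the difference between genotypes, so these values describe the 8 mice. Among 13253 other genes whose FPKM averaged 1 or more, those most like the mean of the 10 were Parp9 (r = 0.993), Rnf114 (0.981), Oasl1 (0.981), Trim21 (0.98) and Ifit2 (0.976). Parp9 was at 36.6 ± 6.22 and 46.4 ± 8.22 FPKM (SD, n = 4) and Ifit2, an antiviral protein, at 73.3 ± 15.2 and 97.5 ± 23.5 FPKM (SD, n = 4).

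Upstream of the 10 genes, IFN-gamma itself was near the limit of detection. Ifng had 1, 3, 6 and 3 counts in knockout replicates 1 to 4 and 9, 11, 10 and 2 in control replicates 1 to 4. Replicate 4 was again the lowest of the control mice. The log2 fold change was -1.58 with a standard error of 0.67 and an adjusted p of 0.498 by edgeR. The receptor chain Ifngr1 had a log2 fold change of -0.21 and Ifngr2 one of -0.33, which were -0.09 and -0.21 with the length offset. Ifngr2 was at 37 ± 0.997 and 41.3 ± 1.88 FPKM (SD, n = 4), and its groups did not overlap, as in 1.92% of all genes. Of the 10 genes of the receptor pathway reported here, 8 were below 0, against 47.5% of all genes, and 3 had an unadjusted p under 0.05 with a lower level, against 5.91%, namely Ifng, Ifngr2 and the feedback inhibitor Socs3, and the median of the list was -0.27.

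Cxcl10, the other Cxcr3 ligand in the table, had a similar difference. It was at 160.5, 220.5, 153.4 and 299.7 FPKM in knockout mice and at 427.8, 528.2, 387.2 and 179.2 FPKM in control mice, with control replicate 4 once more among the other group. Its log2 fold change was -1.11 with a standard error of 0.40, and -0.62 with the length offset. Cxcr3 itself was at 1.1 ± 0.408 and 0.683 ± 0.283 FPKM (SD, n = 4), a log2 fold change of 0.55 with an adjusted p of 0.508 by edgeR.

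Other interferon-inducible GTPases were mostly lower too. Of 14 tested, 13 were below 0, against 47.5% of all genes, and 7 had an unadjusted p under 0.05 with a lower level, against 5.91%, with a median of -0.50. Gbp6 was at 29.1 ± 5.6 and 42.7 ± 11.9 FPKM (SD, n = 4) and Ifi47 at 68.8 ± 17.4 and 120 ± 45.4 FPKM (SD, n = 4). Tgtp2 and Gbp10 had log2 fold changes of -0.93 and -0.80. None passed the adjusted threshold.

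Further IFN-gamma targets were mixed. The immunoproteasome genes Psmb8, Psmb9 and Psmb10, which cut peptides for MHC class I, had log2 fold changes of -0.85, -0.82 and -0.82 on counts and of -0.44, -0.26 and -0.42 with the length offset. Fcgr1, a receptor for IgG, was at 18.5 ± 4.92 and 27 ± 3.65 FPKM (SD, n = 4). In all, 17 of 22 targets were below 0, against 47.5% of all genes, and 8 had an unadjusted p under 0.05 with a lower level, against 5.91%. Their median was -0.34, and -0.21 with the length offset. Among the interferon regulatory factors other than Irf1, 6 of 8 were below 0 and 2 had an unadjusted p under 0.05 with a lower level, against the same 47.5% and 5.91%, Irf7 at -0.66 and Irf9 at -0.48.

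Genes best known from type I interferon were lower to a similar degree. All 10 tested were below 0, against 47.5% of all genes, with a median of -0.77, and 8 had an unadjusted p under 0.05, against 5.91%. Isg15, a ubiquitin-like protein, was at 181 ± 48 and 365 ± 155 FPKM (SD, n = 4), and Rtp4 at 69.2 ± 8.53 and 128 ± 45.7 FPKM (SD, n = 4). Their log2 fold changes of -1.27 and -1.11 on counts were -0.58 and -0.62 with the length offset. All 10 genes of this list stayed below 0 with that offset, with a median of -0.65. Of these, 9 had an unadjusted p under 0.05, against 5.21% of all genes with a lower level. Ifi44 and Ifit3 had log2 fold changes of -0.79 and -0.95. Cytokines and factors that drive IFN-gamma production were also below 0 in 8 of 8 genes, with a median of -0.94. Among them Il15 had a log2 fold change of -1.06, Il27 of -1.41 and Il12b of -1.20. Most of this list had few counts. Il27 had 6 to 20 counts in a mouse and Il12b 6 to 29, and Il12a, Tbx21, Eomes and Ifng had 13 or fewer. With the length offset 7 of the 8 were below 0, Il12a being above it, with a median of -0.54, and Il15 and Il27 were at -0.61 and -0.92. Ifng is counted in this list as well as in the receptor pathway, and Irf8 both among the IFN-gamma targets and among the interferon regulatory factors.

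**Figure D5:**
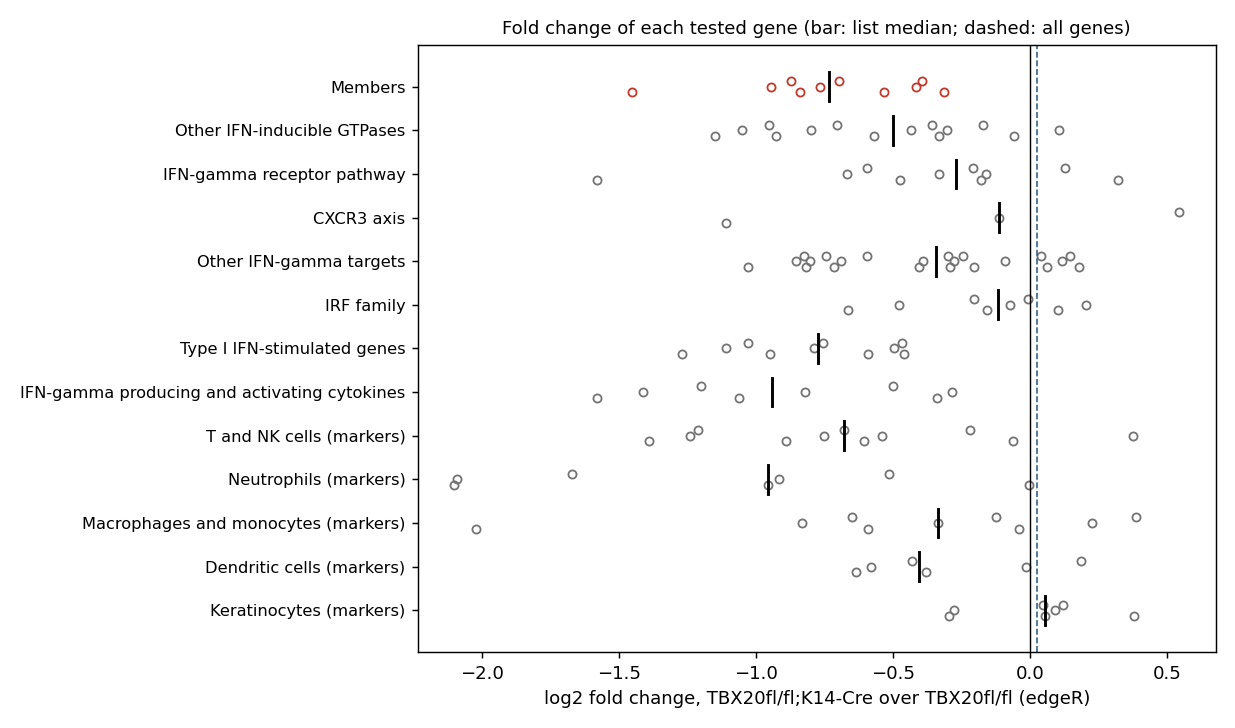
Log2 fold change by edgeR of every tested gene in the pathway lists and in 5 lists of cell type markers, with a bar at the median of each list and a dashed line at the median of all genes. The 10 genes have a median of -0.73 and keratinocyte markers one of 0.05.

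Markers of some immune cells also had lower values in knockout mice. Of all genes tested, 47.5% were below 0 on counts and 46.9% with the length offset. T and NK cell markers were below 0 in 10 of 11 genes, with a median of -0.68, and with the length offset in 9 of 11 with a median of -0.34. Their summed FPKM was 29.6 to 42.9 in knockout mice and 30.9 to 70.6 in control mice, with control replicate 4 the lowest of its group. Ncr1, a receptor of NK cells, was at 0.495 ± 0.123 and 1.11 ± 0.515 FPKM (SD, n = 4). Neutrophil markers were below 0 in 7 of 7 genes, with a median of -0.96. Summed FPKM of these markers was 110 to 299 against 292 to 974. Control replicate 4 had the highest sum, most of it from S100a8 and S100a9. That mouse was also the highest of all mice for Csf3r, Cxcr2 and Mmp9, and the lowest control mouse for Ly6g and Retnlg. Macrophage and monocyte markers were below 0 in 7 of 9 genes with a median of -0.34, and with the length offset in 6 of 9 with a median of -0.12. Dendritic cell markers were below 0 in 5 of 6 genes with a median of -0.40. Keratinocyte markers were below 0 in 2 of 7 genes, with a median of 0.05. The largest median of any marker list was in the other direction: hair follicle genes were above 0 in 6 of 6, with a median of 3.09. In replicates 1 to 4 the summed FPKM was 24.7, 1314, 175 and 38.7 in knockout mice. It was 9.42, 54, 75.8 and 18.2 in control mice. Knockout replicate 2 thus dominated the knockout sums, and the size of this median depends heavily on that library. The fibroblast genes Col1a1 and Col1a2 had log2 fold changes of 1.10 and 0.75, and Dcn and Lum of -0.64 and -0.52. The fibroblast list was above 0 in 3 of 5 genes on counts with a median of 0.37, and with the length offset it was below 0 in 3 of 5 and Col1a2 was at 0.40, so the list had no stable direction. No marker gene passed the adjusted threshold. None of the immune cell and keratinocyte lists held a gene at 0 in any mouse. The part of the immune cell markers in the lower levels of the 10 genes was not tested.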

How the data were processed

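Whole cheek skin from 8 mice was analysed, 1 library a mouse. Reads were cleaned with SOAPnuke and mapped with HISAT by the authors, who deposited 1 table with estimated counts (expected counts), FPKM and TPM per gene and mouse, together with counts divided by a size factor, a normalized signal that was not used. The program that made the counts is not given in the sources used here. The authors' 40 columns of group means and 51 columns of their own comparisons (log2 fold changes, p-values and q-values), also deposited, were not used.

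Counts were rounded, genes with fewer than 10 counts in all 8 mice together were dropped (17124 stayed), and genotypes were compared with edgeR 4.0.16 (TMM, quasi-likelihood test, Benjamini-Hochberg) in R 4.3.3. Standard errors are log2 fold changes over the root of the F statistic. FPKM means were tested by exact permutation, two-sided, over 70 assignments. Alternatives used DESeq2 1.42.0, limma 3.58.1 on log2(FPKM + 1), other filters, a loess offset on transcript length (span 0.5), a replicate block, and the omission of each mouse in turn. TPM replaced FPKM in an alternative chosen after seeing the data. The tests were checked on simulated counts with known changes.

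Totals of 16056282 to 19880654 counts make 3 counts equal to 0.151 to 0.187 CPM, a floor that covers counting error only. Deviations of same-numbered mice from their group means correlated at 0.405, 0.319, 0.331 and 0.16 over 13298 genes. The numbers, taken from the labels, were therefore used to pair the mice in the replicate block and in the ratios between same-numbered mice. The main edgeR fit and the exact permutation test did not use this pairing. The mice are different animals.

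The genes and lists were chosen with earlier results of these data known. Values are given for all 10 genes, for fixed members of the pathway (Ifng, Ifngr1, Ifngr2, Cxcl10, Cxcr3), for up to 4 genes a list by smallest unadjusted edgeR p, and for the 5 genes most correlated with the set. Irf2 to Irf9 formed the list of interferon regulatory factors. Shared sequence was counted as 50-base stretches found in transcripts of another gene in GENCODE vM21. Gene positions come from the deposited table (GRCm38) unless RefSeq is named. One gene of the receptor pathway list is not reported here.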

Additional observations from a re-analysis of the deposited data

Results flagged for a closer look

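The level of each of the 10 genes was searched for a mouse far from the other 3 of its group, 20 groups of 4 in all, where chance flags about 1 in 20. For 3 of them the gap to the nearest mouse, as a share of the whole range of the group, exceeded Dixon's 95% critical value, and each time the mouse was replicate 4. Gbp2 was at 135.9 FPKM in knockout replicate 4, against 70.89 to 81.29 in the other 3 mice of that group. Gbp4 was at 14.04 FPKM in the same mouse, against 8.24 to 9.11. Cxcl9 was at 5.94 FPKM in control replicate 4, against 14.53 to 15.69. The genes vary together over the mice, so these are not separate observations.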

How the results depend on the processing

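All 180 estimates of the 10 genes under 18 alternatives were below 0, and no gene of the 10 reached an adjusted p under 0.05 in any, the smallest being 0.0703. The count of genes past the threshold was 0 by edgeR and limma in every setting, the replicate block included, and 10 by the DESeq2 Wald test. Leaving out each mouse gave 0 to 0 such genes, 5 to 9 of the 10 with an unadjusted p under 0.05 and a lower level, a median log2 fold change of -0.91 to -0.58, and 0 to 6 of the 10 without overlap in FPKM. The 6 came without control replicate 4 and a count of 2 without knockout replicate 4, and it was 0 with CPM or TPM. Blocking on the replicate number, the median log2 fold change was -0.71 and 5 genes were counted. On log2(FPKM + 1) the median of all genes was at 0.12 and that of the 10 genes at -0.52, which is -0.64 relative to all genes. With 4 mice a group the exact test cannot go below 0.0286, and single control mice decide the size of several differences: Gbp5 was at -0.34 without control replicate 1, and Irgm1 and Irf1 at -0.52 and -0.26 without control replicate 2.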
